A study of Homo sapiens and Mus musculus with 15 samples.

Results

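5TGM1 is a mouse myeloma cell line, passaged from a plasma cell myeloma that arose without induction in the C57Bl/KaLwRij strain, and here a bortezomib-resistant derivative was set beside the drug-naive line across all genes. The comparison used 6 of the 15 libraries of the study, 3 of resistant and 3 of naive 5TGM1, chosen by the sample titles. The other 9 libraries are of RPMI-8226, a human myeloma line, and were not used. The naive group is wild type 5TGM1, labelled drug naive. Resistant 5TGM1 was raised in bortezomib until it tolerated the drug, was then kept in 20 nM bortezomib, and was taken off it 5 days before its RNA was extracted. Both groups grew in the same serum-rich medium and were used within a month of thawing. The resistant group is 1 derived line, so what came with its derivation, with the drug and with resistance cannot be told apart. Nothing in the labels says that the replicates were separate cultures, so the p-values rest on a spread that may be technical alone.

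Bortezomib blocks the proteasome, the protease that removes ubiquitin-tagged proteins. Plasma cells make and secrete large amounts of immunoglobulin, and the load of misfolded protein that comes with this makes them sensitive to such a block. Cells that lack the proteasome's full capacity can lean on other routes, among them the lysosome and the machinery that folds proteins.

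Reads on genes ran from 49097494 to 72288680 in the naive libraries and from 49157882 to 57896736 in the resistant ones. Levels are in CPM, the reads of a gene scaled to a common library size, given per library or as mean ± SD (n = 3), changes are log2 fold changes ± SE of resistant against naive libraries, and every adjusted p comes from edgeR's quasi-likelihood test, adjusted over all tested genes. Across genes, which are not independent replicates, libraries correlated at 0.997 to 0.998 within a group and at 0.969 to 0.970 between groups. The defining plasma cell genes were present in every library: Sdc1, encoding CD138, ran from 423 to 461 CPM in the naive and from 670.2 to 699 CPM in the resistant libraries. Irf4 ran from 747 to 792 CPM and from 793 to 853 CPM, and its change was not called. Other markers of the type went either way in the resistant line. Xbp1 fell from 1625 ± 65.5 to 1219.8 ± 26.7 CPM, Prdm1 from 302 ± 16.2 to 213 ± 3.68 CPM and Slamf7 from 139.9 ± 5.00 to 122 ± 5.65 CPM. Igj was higher, at 2446 to 2618 CPM in the naive and 3865 to 4321 CPM in the resistant libraries. Tnfrsf17 was low but also higher, at 3.29 to 4.19 CPM and 4.99 to 5.73 CPM. Of 20 myeloid markers 3 reached the level needed for a test, Cd68 (0.49), Mrc1 (0.40) and Mpeg1 (-1.30). The list summed to 285 to 289 CPM in the naive and 378 to 427 CPM in the resistant libraries, nearly all of it Cd68, while S100a9, Marco and Clec7a were at 0 in all 6 libraries, and what part these markers have in other results was not tested. In bulk RNA, fewer cells of a type and less RNA per cell cannot be told apart.

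The change reached most genes and was small in most of them. Of 11974 tested genes, 8051 (67.2%) passed an adjusted p of 0.05, with 4077 (34.0%) higher and 3974 (33.2%) lower in resistant 5TGM1. Of those that passed, 70.0% changed by less than 1.5-fold. At least a 2-fold change was seen in 439 genes upwards (3.67%) and 736 downwards (6.15%), and at least a 16-fold change in 22 and 70. Large changes lay mostly among weakly expressed genes. The share of tested genes that were called and changed at least 2-fold was 32.9% under 1 CPM, 18.9% from 1 to 10 CPM, 3.59% from 10 to 100 CPM and 2.21% above 100 CPM. The naive and resistant ranges were apart in 8341 genes (69.7%). The tested genes together had a median change of 0.0045. Scaling the libraries sets the typical change near 0, so this median cannot show whether one direction prevailed. Calls were near even in number, while changes of at least 2-fold were more often falls.

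**Figure D1:**
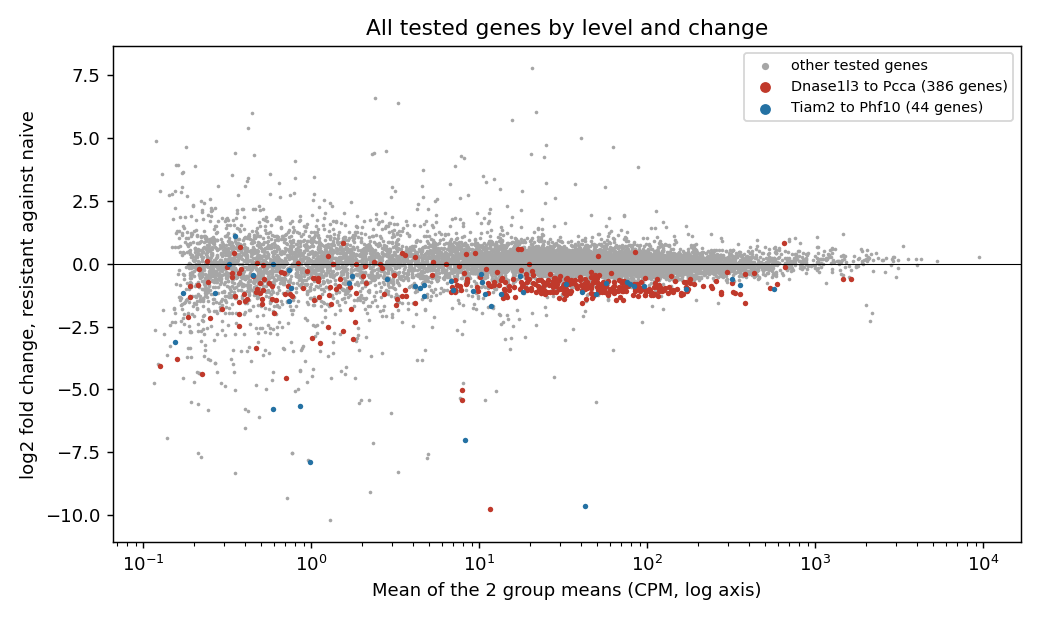
Each point is 1 of 11974 tested genes, with the mean of both group means in CPM on a log axis and the log2 fold change of resistant against naive libraries. Red and blue points are 2 stretches of neighbouring genes whose points form a band near a log2 fold change of -0.92, below the grey cloud around 0.

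Many falls lay next to each other in the order of the genes. The deposited tables list genes in an order that largely follows position: of 10738 adjacent pairs of rows matched by symbol to human genes, 97.6% lay within 20 genes of each other in the human RefSeq order (GRCh38). A running median over 25 tested neighbours, a measure chosen after the data were seen, found 2 stretches of at least 20 genes with a median change beyond 0.5 on the log2 scale. Both were lower in resistant 5TGM1, and no stretch of that length was higher. The longer ran over 386 consecutive tested genes from Dnase1l3 to Pcca, with a median change of -0.92 (middle 50% of its genes from -1.12 to -0.67), and 345 of its genes (89.4%) were called lower against 33.2% of all genes. The shorter ran over 44 genes from Tiam2 to Phf10 with a median of -0.93 and 39 genes called lower. As the stretches were picked by their change, these counts describe them and test nothing.

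**Figure D2:**
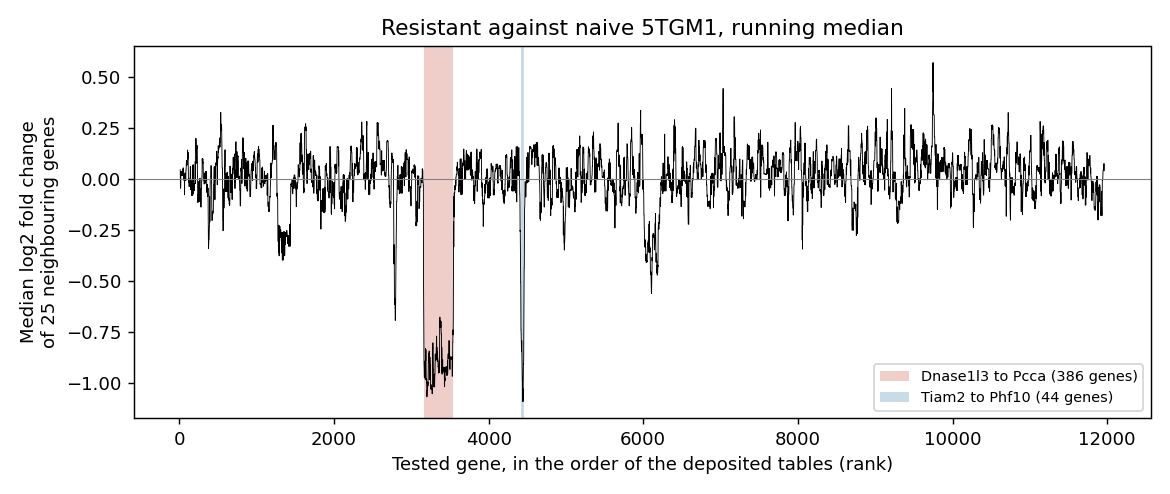
The line is the median log2 fold change of 25 neighbouring tested genes, plotted by their rank in the deposited tables. It stays near 0 for most of the table, drops to about -0.92 over the 386 genes from Dnase1l3 to Pcca (red band) and to about -0.93 over the 44 genes from Tiam2 to Phf10 (blue band), and shows shallower dips elsewhere.

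In the deposited order the change set in within a few genes at both ends of the longer stretch. Whether the genes beyond each end lie on the same chromosome was not checked, as no mouse annotation was used. Zfp131, a zinc finger gene 2 tested genes before it, stood at 96.8, 94.96 and 96.2 CPM in the naive and 93.8, 101 and 101 CPM in the resistant libraries, and the groups overlapped. Rpp14, an RNase P subunit gene and the third tested gene of the stretch, fell from 73.3, 68.3 and 69.0 to 33.1, 30.4 and 33.6 CPM (-1.12 ± 0.0491, adjusted p = 5.6e-12), and the groups lay far apart. At the other end Tmtc4 fell by 0.87 ± 0.0561. The next tested gene in the deposited order, Sepp1, encoding a selenium transport protein, stood at 365 ± 11.3 and 357 ± 9.82 CPM (adjusted p = 0.471). Within the stretch the 3 resistant libraries gave medians of -0.92, -0.90 and -0.91, so the shift was alike in each. Its genes took 3.09% ± 0.0103 of gene reads in naive and 1.77% ± 0.00613 in resistant libraries, a ratio of 0.573.

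Genes of unlike function fell together there. Pdhb, a subunit of the pyruvate dehydrogenase complex, was at 177, 165 and 167 CPM in the naive and 82.4, 84.5 and 81.6 CPM in the resistant libraries (-1.04 ± 0.0424, adjusted p = 2.4e-12). Glud1, glutamate dehydrogenase of the mitochondrion, went from 185, 188 and 191 to 88.4, 89.1 and 88.2 CPM (-1.09). Tkt, the transketolase of the pentose phosphate pathway, went from 423, 447 and 467 to 206, 210.3 and 193 CPM (-1.14). In each of these enzymes every resistant library lay well below every naive one, with a spread of a few percent within a group. Ctsb, a lysosomal protease, fell from 713 ± 5.55 to 363 ± 15.8 CPM, Vdac2, a channel of the outer mitochondrial membrane, from 319.8 ± 2.10 to 162 ± 3.13 CPM, and Top2b, a DNA topoisomerase, from 233 ± 10.4 to 110.2 ± 3.25 CPM. Secretory genes were among them as well, with Dad1, a subunit of the enzyme that attaches N-glycans, at -1.005 ± 0.0460, Sec24c, a cargo adaptor of COPII vesicles, at -1.10 ± 0.0454 and Dnajc3, an ER co-chaperone, at -1.20 ± 0.0390. The DNA repair genes Apex1, which cuts abasic sites (-1.28), and Parp2 (-0.96) fell, as did Bcl2l2, an anti-apoptotic BCL2 relative (-0.83), and Lcp1, an actin bundler of blood cells (-1.57). The 2 genes of the stretch with the most reads fell less: Rps24, a ribosomal protein gene, went from 1978 to 1285 CPM (-0.62) and Tpt1 from 1749 to 1149 CPM (-0.61).

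The stretch also held proteasome genes. Psmb5, the subunit that bortezomib binds, lies in it, and its libraries stood at 70.7, 68.1 and 75.02 CPM (naive) and 39.5, 39.8 and 39.4 CPM (resistant). Its change of -0.85 ± 0.0453 was inside the middle 50% of the genes around it. Psme1 (-1.23) and Psme2 (-1.17), genes of the PA28 cap, Psmd6 (-0.95) and Psmc6 (-0.68), subunits of the 19S cap, lie there too. Whether the change of these genes has anything to do with their neighbours was not tested, and the DNA of the cells was not measured.

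Against this trend 11 of the 386 genes were called higher and 30 were not called. Ero1l, an oxidase that forms disulfide bonds in the ER, stood at 476, 482 and 463 CPM in the naive and 836, 811 and 839 CPM in the resistant libraries (0.81 ± 0.0389, adjusted p = 2.0e-11), the largest rise among members of the stretch above 5 CPM. The others above 5 CPM were 1190002H23Rik (0.60), Rap2a, a small GTPase (0.56), Ear5, a ribonuclease (0.46), Mtrf1, a mitochondrial release factor (0.44), and Dhrs1, a dehydrogenase (0.31). The tumour suppressor gene Rb1 lies in the stretch at a low level, 3.77 ± 0.234 CPM in the naive and 4.52 ± 0.295 CPM in the resistant libraries, and was called higher (0.26 ± 0.0878, adjusted p = 0.0152). That call was lost with DESeq2 (adjusted p = 0.0541) and without naive replicate 2, naive replicate 3 or resistant replicate 3 (adjusted p of 0.0511 to 0.0687). Itm2b, an abundant membrane protein gene, fell by 0.12 ± 0.0395 (adjusted p = 0.0729 without resistant replicate 2), and Clybl, a mitochondrial enzyme gene beside Pcca, was at 19.8 ± 1.01 and 19.5 ± 0.443 CPM (adjusted p = 0.736). At the other extreme, 18 genes fell at least 4-fold. Ripk3, the kinase that starts necroptosis, went from 14.6, 15.6 and 15.7 CPM to 0.324, 0.434 and 0.304 CPM, and Mat1a, which makes S-adenosylmethionine in liver, from 15.2, 15.4 and 15.2 CPM to 0.523, 0.538 and 0.325 CPM. Gpc5, a heparan sulfate proteoglycan of the cell surface, went from 3939 counts over the naive libraries to 4 over the resistant ones. Thrb, a thyroid hormone receptor, fell from 3.01 ± 0.185 to 0.617 ± 0.157 CPM.

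In the shorter stretch moderate falls and near-complete losses lay side by side. Tcp1, a subunit of the chaperonin that folds actin and tubulin, stood at 731, 764 and 796 CPM in the naive and 383, 375 and 366 CPM in the resistant libraries (-1.03 ± 0.0424, adjusted p = 2.5e-12). Sod2, the superoxide dismutase of mitochondria, fell from 127, 119 and 123 to 64.5, 67.6 and 67.2 CPM (-0.89), and Ezr, which ties actin to the membrane, from 454, 470.3 and 459 to 255, 251 and 255 CPM (-0.86). Qk, an RNA-binding protein gene (-0.99), Arid1b, a subunit of a chromatin remodeller (-1.21), Mrpl18 (-0.91) and Wtap, part of the complex that methylates mRNA (-0.80), fell by like amounts. Between them, Igf2r, the receptor that carries mannose 6-phosphate tagged enzymes to lysosomes, held 14721 counts in naive and 17 in resistant libraries. Fndc1 went from 2791 to 20 counts, Map3k4, a MAP kinase kinase kinase, from 287 to 5, 1700010I14Rik from 337 to 1, 2700054A10Rik from 194 to 3 and Plg from 48 to 5. Genes beside them kept a clear level, as Mrpl18, 2 tested genes after Igf2r, stood at 114, 105 and 106 CPM in the naive and 55.8, 57.7 and 59.7 CPM in the resistant libraries. The genes of this stretch took 0.279% ± 0.00289 of gene reads in naive and 0.145% ± 0.00101 in resistant libraries. T, at under 1 CPM in every library, was its single gene called higher (1.08). Beyond the end of the stretch Tbp, the TATA-binding protein gene, stood at 41.8 ± 0.659 and 44.0 ± 1.93 CPM (adjusted p = 0.168).

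**Figure D3:**
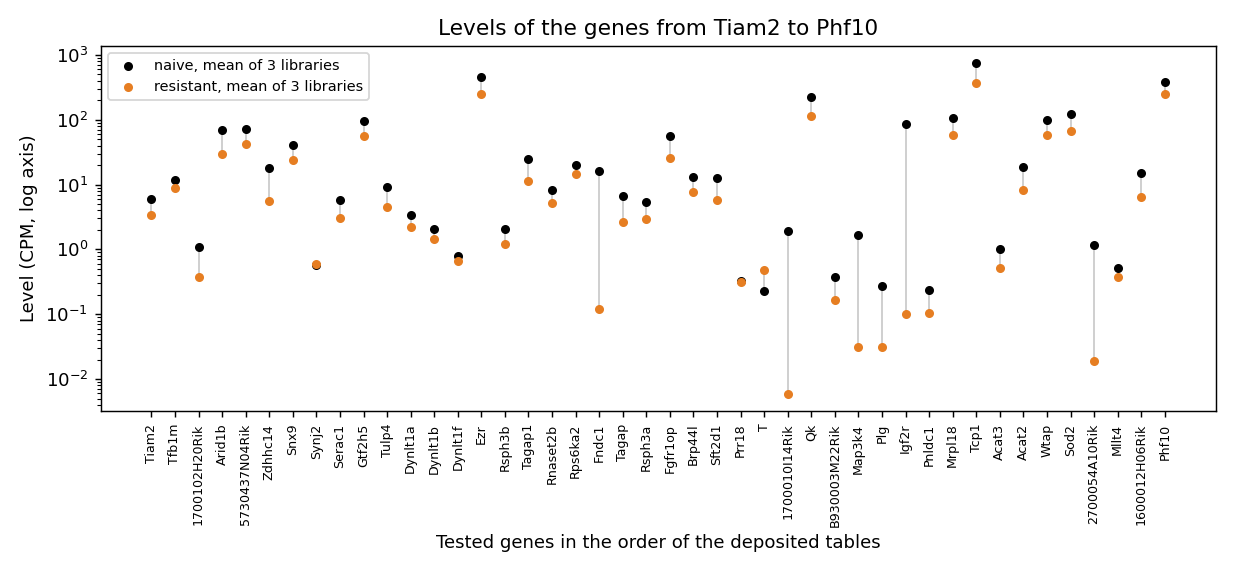
Mean level in CPM on a log axis of the 44 tested genes from Tiam2 to Phf10 in table order, for naive (black) and resistant (orange) libraries, 3 each. Most pairs are separated by a like short distance, while Fndc1, 1700010I14Rik, Map3k4, Plg, Igf2r and 2700054A10Rik drop to about 0.1 CPM or less.

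Outside both stretches 11544 genes remained. Of these 3590 (31.1%) were lower and 4065 higher, and 558 (4.83%) were lower at least 2-fold against 438 higher. The longer stretch held 159 and the shorter 19 of the 736 genes that were lower at least 2-fold. Weaker dips appeared with a window of 50 genes and a threshold of 0.25: 146 genes from Pes1 to Thg1l (median -0.28), 122 genes from Psmb7 to 2700094K13Rik (median -0.35) and 56 genes from Ube2l6 to 2810002D19Rik (median -0.36). A shorter dip of 18 genes from Hist1h3f to Hist1h4b (median -0.64) is a histone cluster, whose near-identical copies make the counts uncertain. The highest window ran from Slc17a7 to Rasip1 with a median of 0.57 and 20 of its 25 genes called higher.

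A few genes were close to absent in one line and clearly present in the other. By a threshold of at least 5 CPM in every library of one group and at most 0.1 CPM in every library of the other, Ptn was switched on and Gpc5, F13b, Hoxa10 and Nr2f2 were switched off. Ptn, a secreted growth factor that binds heparan sulfate, stood at 0.0813, 0.0829 and 0.0612 CPM in the naive and 6.47, 6.47 and 6.51 CPM in the resistant libraries (13 against 1053 counts). F13b, a chain of coagulation factor XIII, went from 10.4, 9.21 and 9.86 CPM to 8 counts over the resistant group. Hoxa10, a homeobox transcription factor of blood progenitors, went from 9.96, 9.13 and 10.2 CPM to 7 counts, and Nr2f2, an orphan nuclear receptor, from 5.57, 7.00 and 6.90 CPM to 3 counts. Other genes of the Hoxa10 cluster, looked up after its value was seen, kept a clear level: Hoxa7 stood at 15.9 ± 0.199 and 17.8 ± 0.474 CPM (0.16) and Hoxa5 at 7.54 ± 0.633 and 6.49 ± 0.858 CPM (adjusted p = 0.0623). With 1 CPM in place of 5, 2 genes were on and 17 off. Among these, picked after their values were seen, Padi6 rose from 8 to 769 counts. Lin28b, which blocks let-7 maturation, fell from 649 to 13 counts, and Pank1, a coenzyme A synthesis kinase, and Lmo2, a transcriptional adaptor of blood cells, fell from 446 and 248 counts to 0. A count of 0 in a resistant library allows a level of up to 0.0518 to 0.0611 CPM.

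The largest rises brought in genes of many tissues. Hspa12a, a distant HSP70 relative, rose from 0.237 ± 0.0467 to 5.34 ± 0.158 CPM, Rorb, a retinoid-related orphan receptor, from 1.73 ± 0.129 to 19.4 ± 1.73 CPM and Wwtr1, the transcriptional coactivator TAZ, from 1.34 ± 0.172 to 12.1 ± 0.782 CPM. Afp, the fetal plasma protein, stood at 5.23, 4.74 and 4.90 CPM in the naive and 44.8, 46.3 and 43.7 CPM in the resistant libraries (3.19 ± 0.0580, adjusted p = 7.4e-17). Cyp2b23, a cytochrome P450, rose from 0.906 ± 0.0658 to 13.4 ± 0.494 CPM. The largest falls beyond those above included Agap1, a regulator of ARF GTPases (-5.95), Fcho1, a clathrin pit protein (53.6 ± 0.577 to 2.35 ± 0.0664 CPM), Slamf6, a lymphocyte receptor (-3.85), Endou, an endoribonuclease (115 ± 0.955 to 10.7 ± 0.940 CPM), and Hapln1, a linker of hyaluronan and proteoglycans (-3.39). No naive library of these genes reached the range of the resistant ones, which the rule for naming them required.

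Some of the most abundant transcripts shifted as well. By change in CPM, Eef1a1, the elongation factor that brings tRNA to the ribosome, rose from 8563 ± 315 to 10315 ± 538 CPM. Pou2af1, the B cell coactivator of octamer factors, went from 887, 901 and 889.7 CPM to 2055, 2046 and 2033 CPM (1.20 ± 0.0385, adjusted p = 1.1e-13), a separation far beyond the spread within groups. Csn3, a milk casein gene, rose from 704, 649 and 634 CPM to 1428, 1359 and 1344 CPM (1.06 ± 0.0462). P4hb, a disulfide isomerase of the ER, rose by 0.55 and Ctsz, a lysosomal protease, by 0.59. Among the largest falls in CPM outside MHC class I were Npm1, a nucleolar chaperone (3553 ± 89.97 to 2444 ± 73.1 CPM), Rnf187, a RING finger protein (1464 ± 82.1 to 847 ± 7.53 CPM), Serp1, which stabilises new membrane proteins (-0.52), Ppia, the prolyl isomerase cyclophilin A (-0.46), and Pabpc1, the poly(A)-binding protein (-0.31). The 10 most abundant genes took 4.11% ± 0.0538 of gene reads in the naive and 4.50% ± 0.0429 in the resistant line. A two-sided exact permutation test of this share gave p = 0.1, which is the lowest value possible with 3 libraries a group.

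**Figure D4:**
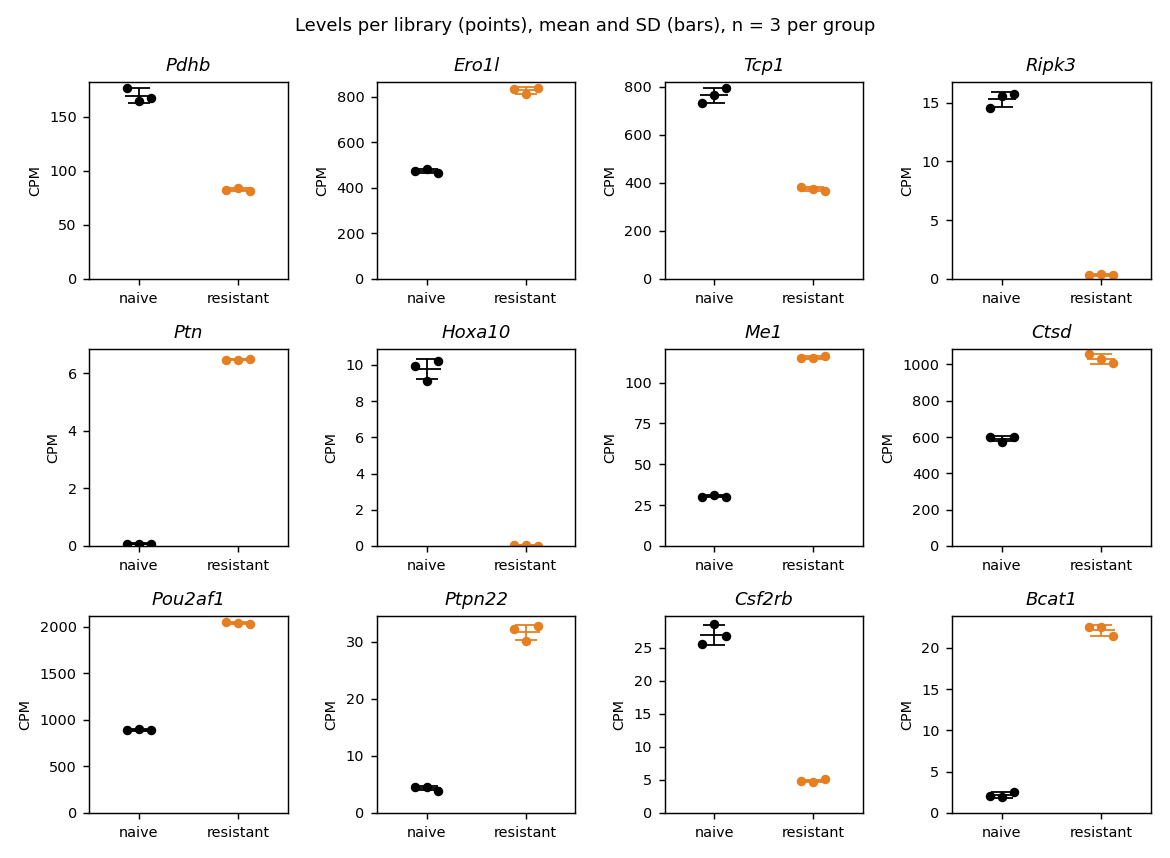
Levels in CPM of 12 genes in each of the 3 naive (black) and 3 resistant (orange) libraries as points, with mean and SD as bars, on axes that start at 0. In every panel the points of the groups are apart; Pdhb, Tcp1, Ripk3, Hoxa10 and Csf2rb are lower and the other 7 genes higher in the resistant line.

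Most lysosomal genes rose. Of 36 tested lysosomal enzymes and membrane proteins 28 rose and 2 fell, with a median of 0.32 against 0.0045 over all tested genes, where 34.0% rose and 33.2% fell. Lipa, which splits cholesteryl esters, stood at 108, 107 and 104 CPM in the naive and 200.3, 183 and 191 CPM in the resistant libraries (0.85 ± 0.0433, adjusted p = 3.9e-11). Ctsd, an aspartic protease, stood at 602, 573 and 601 CPM and 1059, 1031 and 1006 CPM (0.80 ± 0.0405). For both genes the lowest resistant library was far above the highest naive one. Gaa, the acid glucosidase of glycogen (0.97), Ctsl (0.73), Npc1, a cholesterol exporter (0.71), and Lamp1, a main membrane protein (0.65), rose too. The 2 that fell were Ctsb, within the long stretch, and Ctsc (-2.71), which had 57 counts in naive libraries. Tfeb, a transcription factor of lysosomal genes, rose by 0.24 ± 0.0499 (adjusted p = 0.000485). Genes that sort enzymes to lysosomes moved little beside the loss of Igf2r: of 17, 4 rose and 3 fell, and M6pr, the other mannose 6-phosphate receptor, rose by 0.18. The 28 autophagy genes, 9 higher and 8 lower (median 0.0087), were near the shares of all tested genes. Their single member that rose at least 2-fold was Map1lc3a, a form of LC3, from 10.8 ± 0.181 to 36.6 ± 0.795 CPM. Among 26 tested cytosolic heat shock genes, which serve protein folding, 8 rose and 12 fell (median -0.077). That list summed to 9747 to 10232 CPM in the naive and 9223 to 9550 CPM in the resistant libraries. Whether any of these changes has to do with the proteasome was not tested.

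Glycolysis genes changed in both directions, as did all tested genes, of which 34.0% rose and 33.2% fell, while most hypoxia genes rose. Of the 25 glycolysis genes 13 rose and 9 fell (median 0.17), and isoforms of one step parted. Aldoa rose from 1498 ± 44.0 to 2238 ± 55.6 CPM while Aldoc, another aldolase, fell from 15.4 ± 0.390 to 0.573 ± 0.0203 CPM, and the glucose transporter Slc2a1 rose by 0.51 while Slc2a3 fell by 2.54. Pfkp, a phosphofructokinase, stood at 312, 313 and 306 CPM in the naive and 612, 579 and 581 CPM in the resistant libraries (0.93 ± 0.0395), and Gpi1, which feeds that step, rose by 0.91. Of the 21 genes of oxygen sensing and the hypoxia response 16 rose and 2 fell (median 0.61). At least a 2-fold rise was seen in 8 of them, against 3.67% of all tested genes, and 0 fell as far. This list was not compared with genes of its own level. Car9, a carbonic anhydrase that marks hypoxic cells, went from 0.651, 0.622 and 0.674 CPM to 8.62, 9.07 and 7.91 CPM, and Vegfa, an angiogenic factor, rose by 0.45. Hif1a itself was at 121 ± 4.23 and 119 ± 1.07 CPM (adjusted p = 0.72), and Pdk1, which restrains pyruvate dehydrogenase, fell by 0.32.

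Around the citric acid cycle 14 of 30 genes rose and 9 fell (median 0.074), and 3 of those that fell lie in the long stretch. The share that fell was near the 33.2% of all tested genes, of which 34.0% rose. Me1, malic enzyme, which yields NADPH in the cytosol, stood at 30.2, 31.2 and 30.0 CPM in the naive and 115, 115 and 116 CPM in the resistant libraries (1.92 ± 0.0416, adjusted p = 6.5e-16). Bcat1, which starts the breakdown of branched amino acids, rose from 1.99, 1.95 and 2.57 CPM to 22.5, 22.5 and 21.4 CPM (3.37), and the amino acid carrier Slc38a1 rose from 1.27 ± 0.0776 to 7.97 ± 0.357 CPM. For lipids, 14 of 31 fatty acid genes rose and 9 fell, with rises of Plin2, a lipid droplet coat (1.82), Fads1, a desaturase (1.04), and Cpt1a, the carnitine step of fatty acid entry into mitochondria (1.02), while 13 of 25 cholesterol synthesis genes fell and 8 rose. Of the antioxidant genes 16 of 35 rose and 12 fell, with Hmox1, heme oxygenase, up by 1.26 and the cytosolic Sod1 up by 0.67, against the fall of the mitochondrial Sod2. Iron uptake genes, looked up after their values were seen, also parted: Tfr2 rose from 12.1 ± 0.213 to 99.3 ± 3.69 CPM and Tfrc, the main transferrin receptor, fell from 655 ± 57.8 to 379 ± 8.34 CPM.

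Nuclear genes of the respiratory chain and the mitochondrial ribosome rose by small amounts in a larger share than the 34.0% of all tested genes, and those of mitochondrial import did not lean one way. Of 69 genes of the respiratory chain and ATP synthase 41 rose and 5 fell (median 0.13), and no member changed 2-fold. Ndufa1 (0.55), Ndufb10 (0.42) and Cox6a1 (0.36) rose, and Atp5g3, a rotor subunit, fell from 546 ± 17.4 to 372 ± 4.15 CPM. Of 76 genes of the mitochondrial ribosome 49 rose and 8 fell (median 0.16), and of 29 import and chaperone genes 12 rose and 10 fell (median 0.0043). Mrpl24 rose from 37.2 ± 2.24 to 79.6 ± 1.89 CPM, and the 3 members that fell most, Mrpl18 (-0.91), Mrpl52 (-0.72) and Mrps16 (-0.46), all lie in the stretches of lower genes.

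Counts of falls stood above counts of rises among genes that process RNA, make nucleotides and repair DNA, where 33.2% of all tested genes fell and 34.0% rose. Of 53 splicing factor genes 30 fell and 6 rose (median -0.18), all of them by less than 2-fold. Sf3b3 (-0.52) and Sf3a1 (-0.47), parts of the U2 particle, Prpf8, the core of the spliceosome (-0.49), and Hnrnpr (-0.48) fell, and Hnrnpa1, which has many near-identical copies, rose by 0.53. Of 27 purine and pyrimidine synthesis genes 17 fell and 3 rose (median -0.15), among them Atic (-0.55) and Pfas (-0.48) of the purine route and Rrm1 (-0.42) and Rrm2 (-0.41), the subunits of ribonucleotide reductase. Of 62 genes of DNA damage signalling and repair 30 fell and 16 rose (median -0.10, or -0.053 without the 3 in the stretches). Fancm, a helicase of the Fanconi pathway, fell by 0.68, Parp1 fell by 0.47, and Mlh3, a mismatch repair gene, rose by 0.83. Cdkn1a, the cell cycle inhibitor p21, stood at 145, 144 and 150.0 CPM in the naive and 328, 343 and 333 CPM in the resistant libraries (1.20 ± 0.0399), and Ccnd1, a D-type cyclin, fell from 13.8 ± 1.43 to 5.69 ± 0.235 CPM. Of 21 p53 targets 7 rose and 9 fell.

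**Figure D5:**
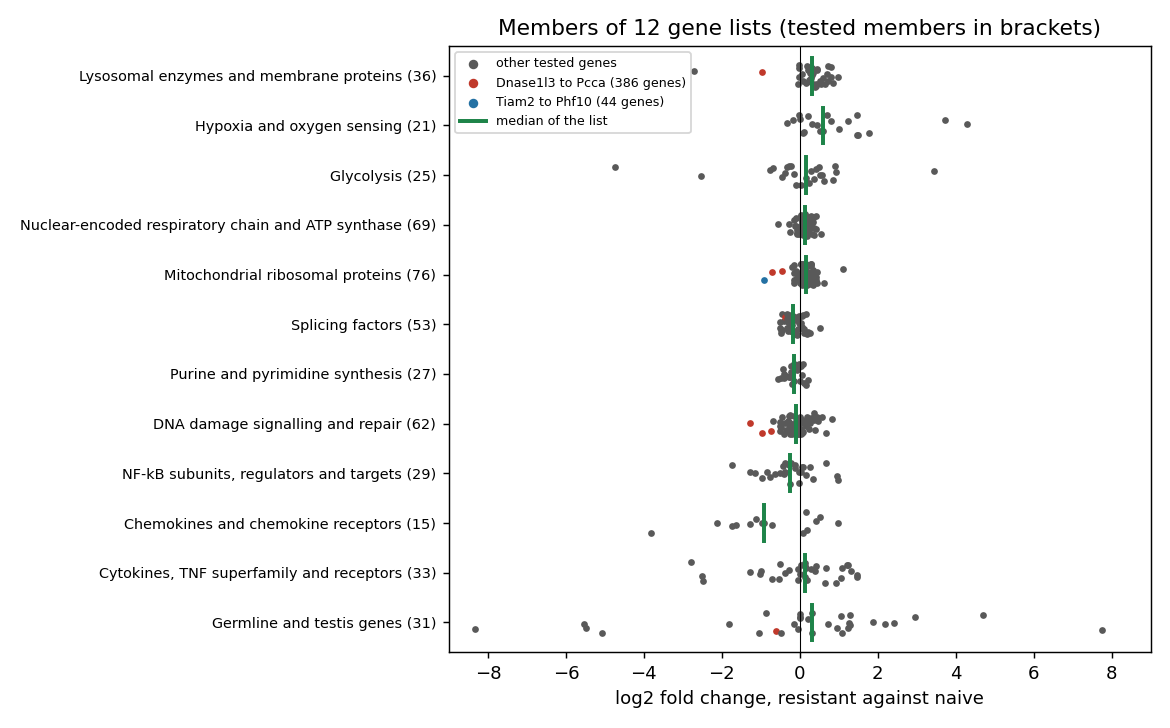
Each point is a tested member of 1 of 12 gene lists, placed by its log2 fold change, with a green bar at the median of the list. Members in the stretch from Dnase1l3 to Pcca are red and those from Tiam2 to Phf10 blue; medians run from -0.92 (chemokines and their receptors) to 0.61 (hypoxia).

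Of 29 NF-kB subunits, regulators and targets 16 fell and 6 rose (median -0.24), where 33.2% of all tested genes fell and 34.0% rose. Rel, a subunit found in lymphocytes, went from 47.2, 55.0 and 51.6 CPM in the naive to 29.9, 26.2 and 29.4 CPM in the resistant libraries (-0.85 ± 0.0604, adjusted p = 2.9e-09), and Tnfaip3, the inhibitor A20, from 60.1, 60.3 and 56.4 to 31.3, 29.1 and 29.5 CPM (-0.98). Nfkbia, the inhibitor that holds NF-kB in the cytosol, fell by 0.40, and Plek, a substrate of protein kinase C in blood cells, rose by 0.95. Of 43 listed chemokines and their receptors 15 were tested, and 9 fell and 5 rose (median -0.92), beside the same all-gene shares. The list summed to 108 to 113 CPM in the naive and 101 to 105 CPM in the resistant libraries. It was not compared with genes of its own level, and large changes were commoner among weakly expressed genes. The chemokine Ccl3 fell from 17.2 ± 0.762 to 5.19 ± 0.163 CPM and Ccl4 fell by 1.29, while Ccl5 rose from 3.49 ± 0.506 to 6.87 ± 0.158 CPM. Cxcr4, the receptor that holds plasma cells in marrow, rose by 0.43 ± 0.0531.

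Receptors of cytokines changed in either direction, 16 of 33 cytokine and TNF family genes rising and 10 falling, where 34.0% of all tested genes rose and 33.2% fell. The chains of the GM-CSF receptor moved apart. Csf2rb, the shared signalling chain, went from 25.6, 28.6 and 26.7 CPM in the naive to 4.76, 4.67 and 5.05 CPM in the resistant libraries (-2.49 ± 0.0656, adjusted p = 8.1e-15), and its ligand-binding partner Csf2ra from 13.97, 12.1 and 11.4 to 29.6, 28.7 and 30.2 CPM (1.246 ± 0.0642). The groups of both genes lay apart, in opposite directions. Il13ra1 (1.30), Ifnar2, a chain of the type I interferon receptor (1.09), and the cytokine Il10 (1.05) rose, and Il6ra, the receptor of the myeloma growth factor IL-6, fell from 16.9 ± 0.900 to 8.34 ± 0.289 CPM. Of 27 TGF-beta and BMP genes 12 fell and 3 rose (median -0.22, or -0.13 outside the stretches). Smad3, which carries the signal to the nucleus, fell from 14.1 ± 1.20 to 5.55 ± 0.2496 CPM, and Id3, a BMP target, from 35.8 ± 1.252 to 14.4 ± 0.815 CPM, while Tgfb1 was at 128 ± 7.76 and 124 ± 1.38 CPM (adjusted p = 0.376, or 0.0416 without naive replicate 1). Of 43 calcium and phospholipase C genes 26 fell and 11 rose (median -0.23, or -0.15 outside the stretches), with Prkcd, a protein kinase C of the long stretch, lower (-1.26) and Plcd3 lower (-1.38), against the rises of Plcb4 (4.36) and Camk2d (4.25).

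Of 25 lymphoid transcription factors 13 fell and 4 rose (median -0.13), and of 25 B cell receptor signalling genes 14 fell and 5 rose (median -0.11). Over all tested genes 33.2% fell and 34.0% rose. Ikzf3, encoding Aiolos, stood at 31.7, 32.8 and 25.9 CPM in the naive and 17.4, 12.7 and 15.3 CPM in the resistant libraries (-0.997 ± 0.0951), and Ikzf1, encoding Ikaros, at 206, 234 and 229 and 172, 168 and 167 CPM (-0.40 ± 0.0472). Both factors are degraded in human myeloma cells by drugs of the lenalidomide class, and for both genes the groups were apart. Runx1 fell by 1.08 and Pou2f2, an octamer factor, fell by 0.70, against the rise of its coactivator Pou2af1. In B cell receptor signalling Bank1, an adaptor, fell from 8.66 ± 0.728 to 0.799 ± 0.183 CPM, Ptpn22, a phosphatase that restrains the receptor, went from 4.57, 4.52 and 3.86 CPM to 32.2, 30.2 and 32.7 CPM (2.87 ± 0.0680), and Fcgr2b, the inhibitory Fc receptor, rose by 0.74. St6gal1, which adds sialic acid to glycoproteins, fell from 67.0 ± 2.72 to 18.2 ± 0.227 CPM, and Bcam, an adhesion molecule, from 36.5 ± 0.442 to 6.75 ± 0.405 CPM.

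Genes that build heparan sulfate, the sugar chain of Sdc1, moved both ways, as did all tested genes with 34.0% higher and 33.2% lower: 11 of 22 proteoglycan genes rose and 8 fell (median 0.18, or 0.45 outside the stretches). Glce, an epimerase of the chain, rose from 49.0 ± 1.86 to 100.2 ± 6.22 CPM, and B3gat3 (0.75) and Xylt2 (0.69), which build its linker, rose. Extl3 (-1.09) and Ndst2 (-1.05), which start and sulfate chains, fell and lie in the long stretch. Of 70 actin cytoskeleton genes 35 fell and 13 rose (median -0.15), with Arhgef2, an exchange factor bound to microtubules, lower (-0.87).

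Lists of cell death genes did not lean one way. Of 18 necroptosis and pyroptosis genes 7 rose and 5 fell (median 0.052), of 8 anti-apoptotic BCL2 relatives 3 rose and 3 fell, and of 11 pro-apoptotic ones 3 rose and 5 fell, where 34.0% of all tested genes rose and 33.2% fell. Gsdmd, the pore protein of pyroptosis, went from 14.2, 13.3 and 14.5 CPM in the naive to 4.29, 4.61 and 4.85 CPM in the resistant libraries (-1.61 ± 0.0707, adjusted p = 5.6e-12), and the death receptor gene Fas from 8.03, 7.54 and 7.72 to 3.15, 3.28 and 3.29 CPM (-1.26). With Ripk3 these were the 3 genes of 18 in the first list that fell at least 2-fold. Bcl2l11, the pro-apoptotic protein BIM, fell from 16.3 ± 0.579 to 8.23 ± 0.283 CPM, and Bbc3, encoding PUMA, rose by 0.44. Of the anti-apoptotic relatives Bcl2l1, encoding BCL-XL, rose from 225 ± 6.06 to 294 ± 7.79 CPM and Bcl2l2, in the long stretch, fell.

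Genes normally expressed in germ cells changed in both directions. Of 90 listed germline and testis genes 31 were tested, 15 rose and 9 fell, 12 and 6 of them at least 2-fold. Over all tested genes 3.67% rose and 6.15% fell that far, but among those under 1 CPM 32.9% changed by as much, and the list was not compared with genes of its own level. Nlrp4f, an oocyte gene, rose from 2.95, 2.90 and 3.37 CPM to 24.3, 23.6 and 22.9 CPM and Brdt, a testis bromodomain gene, from 6.55 ± 0.402 to 15.7 ± 1.253 CPM. Tex101, a testis surface protein, fell from 103, 92.6 and 95.3 CPM to 2.05, 2.58 and 1.76 CPM and Ldhc, the testis lactate dehydrogenase, from 123 counts to 0. Of 62 genes of DNA methylation and chromatin silencing 24 fell and 14 rose (median -0.03), against 33.2% and 34.0% of all tested genes. Dnmt1, the maintenance methyltransferase, fell by 0.29 ± 0.0430 and its partner Uhrf1 fell by 0.56 ± 0.0565, Setdb2 (-1.06) and Mphosph8 (-0.95) fell and lie in the long stretch, and Hdac9, a deacetylase, rose by 1.05. No test related these genes to the germline genes.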

How the data were processed

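RNA of 5TGM1 cells was sequenced in 6 libraries, 3 per group by their titles. The authors deposited STAR gene tables, per the submitters' processing notes (version not given in the sources used here), with mm10 and GRCm38 among the builds named. Each deposited table gives raw counts of reads for 23329 genes. Its first 4 lines hold reads not assigned to genes and were left out: unmapped (5.62 to 6.04% as a share of all reads), multimapping (15.3 to 16.3%), outside genes (10.6 to 12.0%) and ambiguous (0.602 to 0.633%). Reads with several alignments are not counted, so genes with near-identical copies are uncertain. The antisense-strand column (the fourth) was used, since the sense column held 1.83 to 2.12% of the reads on genes.

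Genes were filtered with filterByExpr, leaving 11974, scaled by TMM and tested with edgeR's quasi-likelihood test (edgeR 4.0.16, limma 3.58.1, R 4.3.3), adjusted by Benjamini-Hochberg and called below 0.05. The code was tested on simulated data. CPM was computed on TMM-scaled totals, and the biological coefficient of variation was 4.03%. No 2 libraries were alike within sampling noise (chi-square per degree of freedom 4.02 to 15.4 within groups). Alternatives were DESeq2 1.42.0, other filters, scaling, strand, a replicate block and leaving out each library.

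Members and the 55 gene lists were chosen with earlier results of these data known. Named genes were the 20 largest rises and falls by fold and 12 by CPM, up to 5 members per list of at least 5 CPM, members needed for their roles, switched genes and members of the stretches.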

Additional observations from a re-analysis of the deposited data

How the results depend on the processing

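The main fit called 4077 genes higher and 3974 lower, whereas DESeq2 called fewer genes higher than lower. The counts that moved by more than 1.5-fold came from a test against 2-fold itself and from other thresholds for switched genes and stretches. Medians of the 55 gene lists moved as well. Of 330 computed without 1 library, 73 moved by more than their spread over the resistant libraries. So did 2 with DESeq2, 4 with no filter and 2 without regard to strand. Over these settings chemokines ran from -0.98 to -0.70 and TGF-beta and BMP genes from -0.24 to -0.11. In 11 lists with medians of at most 0.045 in size, autophagy and mitochondrial import among them, the sign changed. Of the genes named with a value, 2 that were not called changed sign without a library: Clybl ran from -0.067 to 0.016 and Hif1a from -0.043 to 0.0040. Calls lost without some library, besides Rb1 and Itm2b, were of Vps26a, Gga3, Bmf and Serpini1, whose values are not described, and the block lost no call of a gene described here. DESeq2 called 3753 genes higher and 3846 lower, and a replicate block 3912 and 3804, with 439 and 732 at least 2-fold and stretch medians of -0.92 and -0.93. Deviations from the group mean correlated at -0.062, -0.11 and -0.034 between same-numbered libraries, and at -0.030 to 0.10 between the others. With 3 libraries a group, these values cannot show whether same-numbered libraries shared a culture or batch. Without each library in turn, 3756 to 4089 genes were higher and 3652 to 4057 lower, 443 to 506 and 747 to 800 at least 2-fold, 1 gene was switched on and 4 to 5 off, and the stretch medians ran from -0.931 to -0.917 and from -0.933 to -0.900. Tested against 2-fold itself (glmTreat), 240 genes were higher and 418 lower. With 1 CPM in the higher group 2 genes were switched on and 17 off, and with 0.5 CPM in the lower group 3 and 9. Over the 50 most abundant genes the share of reads was 0.340 percentage points higher in resistant libraries, against 0.397 for 10. With no filter on low counts the median from Dnase1l3 to Pcca was -0.91, and Hoxa5 passed the test (adjusted p = 0.0241), as it did without naive replicate 2 or resistant replicate 2. Irf4 passed without a filter (adjusted p = 0.0291) and without naive replicate 2 or resistant replicate 3. A window of 50 genes and a threshold of -0.25, chosen after seeing the data, put 815 genes in lower stretches, against 430. Medians by chromosome and promoter features were not run, as no mouse annotation was used here.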
